A study of Arabidopsis thaliana with 18 samples.

Results

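Transcripts encoded by the mitochondrial genome were followed in Arabidopsis thaliana leaf mesophyll protoplasts of nph4-1 arf19-1 and WT plants. The members are all features whose identifier begins with ATMG, read through the lowest-numbered splice variant of each locus, and they number 121 of 24532 loci in the count tables. Each level is given in RPM, the reads of a feature per 1000000 mapped reads, with the authors' total of mapped reads in that library as the divisor. All plants were of the Columbia-0 ecotype. The nph4-1 arf19-1 double mutant carries lesions in ARF7 and ARF19, which encode transcription factors that activate auxin-responsive genes. The 6 groups were nph4-1 arf19-1 and WT protoplasts, freshly isolated (Day 0) and after 4 and 6 days of culture, with 3 libraries in each group and 18 in all. Cultured protoplasts of both genotypes were kept in the dark, in gels of alginate and mannitol, in a medium with the synthetic auxin 2,4-D and the cytokinin-like thidiazuron. The sample labels give the treatment as fresh at Day 0 and as control for the other cultured groups, but as yucasin, an inhibitor of auxin biosynthesis, for the 3 Day 6 nph4-1 arf19-1 libraries, for which the study's text names no yucasin. The genotype and that labelled treatment therefore cannot be told apart in any comparison that uses Day 6 nph4-1 arf19-1.

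The plant mitochondrial genome encodes a small set of subunits of the respiratory chain complexes and of the ATP synthase, some ribosomal proteins, factors that attach heme to cytochrome c, ribosomal and transfer RNAs, and many open reading frames without a known role. Most other mitochondrial proteins, including the polymerases, splicing and editing factors that make and process these transcripts, are encoded in the nucleus. Plant mitochondrial transcripts are seldom polyadenylated in a stable way, and a poly(A) tail on them marks RNA for decay. The libraries were made with a stranded mRNA kit, which selects poly(A) RNA, so the values below describe the mitochondrial RNA that passed this selection and not the whole mitochondrial RNA of a cell. A name was at hand for 26 of the 121 members: 9 loci for complex I, 1 for complex III, 3 for complex IV, 6 for the ATP synthase, 3 for cytochrome c maturation and 4 for ribosomal proteins. These are counts of loci and not of distinct subunits. ATMG01320 is noted as NADH dehydrogenase 2B beside NAD2 (ATMG00285), and ATP6-1 and ATP6-2 name the same subunit. The other 95 are given by identifier alone. Some of these, among them ATMG00090, ATMG00520, ATMG00570 and ATMG00640, are also listed as coding for a known subunit or RNA. The counts by class therefore cover the 26 named loci only and are not complete.

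Chromosome 2 of this ecotype holds a nuclear insertion of mitochondrial DNA, and it bears on how a count can be read. In the RefSeq annotation of the TAIR10.1 assembly, 46 loci of chromosome 2 between positions 3239693 and 3503476 name 45 members as their best match. Of 18 members whose RefSeq coding sequence could be assigned, 15 were found whole on chromosome 2, 2 were found in part (COX2 and NAD9) and COX1 had no nuclear match. ATP9, the ring-forming subunit of the ATP synthase, is shown because its whole coding sequence of 225 bases lies on the minus strand at chr2:3251856-3252080 with 0 bases different from the mitochondrial one. NAD9, a complex I subunit, is shown because its only nuclear stretches were short ones, and the longest, coding bases 462 to 573 on the minus strand at chr3:16084655-16084766, differs at 8 of 112 bases, written in capitals.
ATP9 copy on chromosome 2: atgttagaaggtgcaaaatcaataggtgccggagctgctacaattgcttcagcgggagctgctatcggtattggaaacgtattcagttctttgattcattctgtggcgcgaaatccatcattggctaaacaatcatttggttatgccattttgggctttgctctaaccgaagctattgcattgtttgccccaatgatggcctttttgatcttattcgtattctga
NAD9 stretch on chromosome 3: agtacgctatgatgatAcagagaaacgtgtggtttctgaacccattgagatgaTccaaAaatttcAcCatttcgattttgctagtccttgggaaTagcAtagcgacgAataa

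The counts of a member and of its nuclear copy were not independent. In 8 of the 46 pairs the deposited counts were identical in all 18 libraries, as for ATP8, whose 6539 reads equalled those of AT2G07707. Over the 46 pairs the nuclear locus had a median of 1.26 times the reads of its member, with a range of 0.290 to 7.63 times, and the lowest correlation of their log2 RPM over the 18 libraries was 0.88. For members with such a copy, reads from the organelle and from chromosome 2 cannot be told apart in these counts. In 3 cases a pair of members also had identical counts in every library (ATMG00170 and ATMG00620, ATMG00430 and ATMG01150, ATMG00440 and ATMG01140), and ATP6-1 and ATP6-2 are near-identical copies, so these are not independent features. In the TAIR10.1 assembly COX1, and for most of their length COX2 and NAD9, are free of this overlap, and their values are given beside the others.

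The totals of mapped reads ran from 3438524 to 12119944 per library, and 3 reads correspond to 0.248 to 0.872 RPM, a floor that covers counting error only. ARF7 averaged 26.1, 14.2 and 15.1 RPM in nph4-1 arf19-1 and 104, 48.7 and 44.0 RPM in WT at Days 0, 4 and 6, and ARF19 averaged 6.7, 11.5 and 9.78 RPM in nph4-1 arf19-1 and 5.82, 69.5 and 107 RPM in WT. Both mutated genes were thus lower in the mutant, ARF7 at all 3 days and ARF19 at Days 4 and 6. The summed level of 5 mesophyll markers was 1163, 342 and 250 RPM in nph4-1 arf19-1 and 648, 345 and 640 RPM in WT at the 3 days. The summed level of 6 vascular markers averaged 2.13 RPM in nph4-1 arf19-1 and 39.0 RPM in WT at Day 6, and that of 4 epidermal markers 22.7 and 4.33 RPM. Bulk RNA cannot separate fewer cells of a type from less RNA per cell. The part of these shifts in cell type markers in the results below was not tested.

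Summed over the 121 members, mitochondrial RNA took a small share of the libraries from fresh protoplasts and a much larger one after 4 days of culture, most of all in nph4-1 arf19-1. At Day 0 the sums were 471, 497 and 505 RPM in nph4-1 arf19-1 and 547, 438 and 525 RPM in WT. At Day 4 they were 8470, 11783 and 13601 RPM in nph4-1 arf19-1 and 2915, 4425 and 5146 RPM in WT. At Day 6 they were 4304, 4294 and 4466 RPM in nph4-1 arf19-1 and 2123, 2503 and 2201 RPM in WT. The genotypes overlapped at Day 0 and did not overlap at Days 4 and 6, and within each genotype no library of one day reached into the range of another. Between the genotypes the mean sums differed by factors of 0.977, 2.71 and 1.91 (nph4-1 arf19-1 over WT, Days 0, 4 and 6), and by 1.07, 3 and 2.52 with library sizes scaled by TMM, the edgeR normalization for composition.

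**Figure D1:**
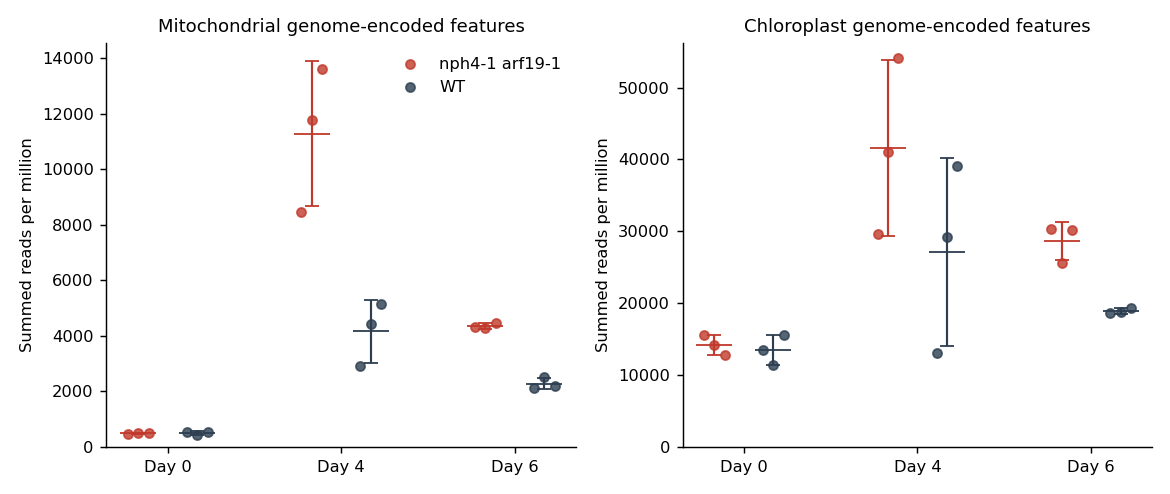
Summed level (RPM) of the 121 mitochondrial genome-encoded features (left) and of the 88 chloroplast genome-encoded features (right) in each of the 18 libraries, by day and genotype. Points are libraries, horizontal bars the mean and vertical bars the SD of 3 libraries. The Day 4 nph4-1 arf19-1 libraries hold the 3 highest mitochondrial sums, from 8470 to 13601.

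The spread among the libraries of a group was widest at Day 4, where the highest sum was 1.61 times the lowest in nph4-1 arf19-1 and 1.77 times in WT. In both genotypes the Day 4 library numbered 1 was the lowest, and in both it was also the lowest in chloroplast genome-encoded RNA, with 29669 RPM against 40971 and 54104 in nph4-1 arf19-1 and 13132 RPM against 29141 and 39027 in WT. The labels give no preparation batch, so whether these libraries share one was not tested. Relative to the chloroplast sum of the same library, the mitochondrial sum was 0.251 to 0.288 in nph4-1 arf19-1 and 0.132 to 0.222 in WT at Day 4. It was 0.142 to 0.168 in nph4-1 arf19-1 and 0.114 to 0.133 in WT at Day 6, and 0.0303 to 0.0393 in nph4-1 arf19-1 and 0.0337 to 0.0405 in WT at Day 0. The ratios, like the sums, did not overlap between genotypes at Days 4 and 6 and overlapped at Day 0.

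In fresh protoplasts a few genes supplied most mitochondrial reads. ATP1, the alpha subunit of the catalytic head of the ATP synthase, took 17.7% to 23.1% of all member reads in the 6 Day 0 libraries. The 10 highest members together took 58.5% of member reads in nph4-1 arf19-1 and 55.5% in WT at Day 0. The count of members with at least 1 RPM in all 3 libraries was 46 in nph4-1 arf19-1 and 49 in WT, and 50 members in nph4-1 arf19-1 and 37 in WT had at most 3 reads in each Day 0 library. Per kilobase of RefSeq coding length, ATP9 was the highest of the 18 members for which that length was known, at 152 ± 10.3 RPKM in nph4-1 arf19-1 and 173 ± 13.0 RPKM in WT (SD, n = 3 each). ATP1 followed with 69.9 ± 4.72 RPKM in nph4-1 arf19-1 and 65.1 ± 11.9 RPKM in WT, and ATP8 with 31.7 ± 2.73 and 33.3 ± 2.57 RPKM (SD, n = 3 each). Below these the order was not resolved, since COX2, the ribosomal protein S12/S23 family gene (ATMG00980) and NAD6 lay within 19.1 to 29.5 RPKM with SDs of up to 5.06. Ribosomal protein S7 was lowest, at 1.18 ± 0.182 RPKM in nph4-1 arf19-1 and 2.14 ± 1.25 RPKM in WT (SD, n = 3 each).

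The question of each comparison is whether mitochondrial transcripts changed over culture and whether the change depended on ARF7 and ARF19. Counts of all 32294 splice variants were fitted together with edgeR's quasi-likelihood test, and a feature was called at a Benjamini-Hochberg false discovery rate (FDR) under 0.01 over the 25202 features tested. Of the 121 members, 115 passed the filter on low counts and were tested. A log2 fold change is on the TMM-scaled count scale and is followed by its standard error (SE). Members that rose only from near 0 reads entered the test through the groups where they were high, so counts over tested members are given beside the share of all features called in the same direction.

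No member was called different between the genotypes at Day 0. edgeR called 0 of the 115 tested members higher in nph4-1 arf19-1 and 0 lower, where 6.4% of all tested features were called higher and 1.84% lower. DESeq2 called 0, and 2 members passed an unadjusted p of 0.05 in edgeR, both lower in nph4-1 arf19-1. The median log2 fold change over the tested members was −0.01, against 0.03 over all features, and the genotypes' ranges of RPM overlapped for 108 of the 121 members, or 89.3%, beside 71.9% of all 24532 loci. ATP1, for example, stood at 104, 115 and 101 RPM in nph4-1 arf19-1 and at 120, 85.0 and 93.1 RPM in WT.

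After 4 days of culture mitochondrial transcripts had risen in nph4-1 arf19-1 across every functional class. edgeR called 115 of 115 tested members higher at Day 4 than at Day 0, where 39% of all features were called higher, and 0 lower, against 36.1%. The median log2 change was 4.62, or 24.7-fold, beside 0.18 over all features. It was 4.49 with the 8 members that had no read in any Day 0 library set to their lower bound. In WT, 110 of 115 were called higher at Day 4 than at Day 0, where 42.6% of all features were, and 0 lower, against 37%. The median log2 change in WT was 2.97, or 7.82-fold, beside 0.23 over all features, and 2.83 with 5 such members at their bound. Scaling by library totals in place of TMM moved the median over all features by 1.01 in nph4-1 arf19-1 and 1.03 in WT, and the members' medians to 5.61 and 3.96.

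**Figure D2:**
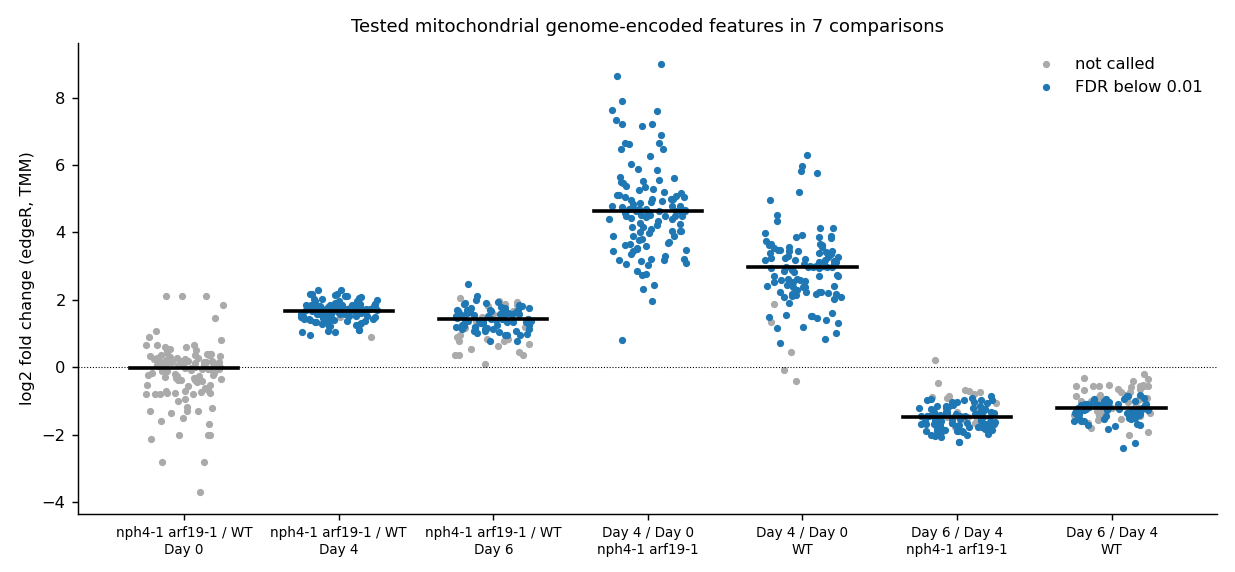
log2 fold change (edgeR, TMM-scaled) of the 115 tested members in 7 comparisons. Each point is a member, blue where FDR is below 0.01 and grey otherwise, and black lines are medians. The medians lie at −0.01, 1.66 and 1.43 for nph4-1 arf19-1 over WT at Days 0, 4 and 6, at 4.62 and 2.97 for Day 4 over Day 0 in nph4-1 arf19-1 and WT, and at −1.48 and −1.20 for Day 6 over Day 4.

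The ATP synthase genes included the highest members per length at Day 0, and ATP1 and ATP9 had smaller changes than the median member. All 6 were called higher at Day 4 in nph4-1 arf19-1, with log2 changes of 1.97 to 4.01, and 5 of 6 in WT, with changes of 0.45 to 2.43 over all 6. ATP9 stood at 368, 557 and 476 RPM at Day 4 and at 32.1, 34.1 and 36.7 RPM at Day 0 in nph4-1 arf19-1 (log2 change 2.75 ± 0.14 SE, FDR = 6.45e-13 by edgeR). In WT it stood at 130, 141 and 156 RPM at Day 4 and at 40.9, 35.6 and 40.4 RPM at Day 0 (0.84 ± 0.14 SE, FDR = 1.09e-05 by edgeR). ATP1 stood at 642, 972 and 921 RPM at Day 4 against 104, 115 and 101 RPM at Day 0 in nph4-1 arf19-1, and at 236, 278 and 316 RPM at Day 4 against 120, 85.0 and 93.1 RPM at Day 0 in WT. In RPM its Day 4 libraries were above its Day 0 libraries in both genotypes, whereas with TMM scaling the WT ranges overlapped, at 177 to 241 at Day 4 and 135 to 187 at Day 0. The log2 change of ATP1 was 1.97 ± 0.17 SE in nph4-1 arf19-1 (edgeR FDR = 2.02e-09) and 0.45 ± 0.17 SE in WT, where it did not pass (edgeR FDR = 0.0191). ATP8, of the membrane-bound part of the enzyme, stood at 172, 253 and 238 RPM at Day 4 against 14, 14.9 and 16.6 RPM at Day 0 in nph4-1 arf19-1. In WT it stood at 56.7, 67.6 and 73.6 RPM at Day 4 against 17, 16.1 and 14.6 RPM at Day 0.

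Complex I, which passes electrons from NADH to ubiquinone, ranged more widely. All 9 of its members were called higher at Day 4 in nph4-1 arf19-1 (log2 0.82 to 4.76) and 8 of 9 in WT. NAD7 stood at 221, 299 and 378 RPM at Day 4 against 5.08, 6.25 and 6.50 RPM at Day 0 in nph4-1 arf19-1 (4.64 ± 0.24 SE, FDR = 6.88e-13 by edgeR). In WT it stood at 71.9, 115 and 128 RPM at Day 4 against 6.53, 4.79 and 5.83 RPM at Day 0 (3.18 ± 0.24 SE, FDR = 1.41e-10 by edgeR). NAD6 had the lowest log2 change of the tested members in both genotypes. It stood at 35, 64.5 and 63 RPM at Day 4 against 15, 14.9 and 15.5 RPM at Day 0 in nph4-1 arf19-1 (0.82 ± 0.24 SE, FDR = 0.00336 by edgeR). In WT it stood at 13.9, 19.5 and 21.9 RPM at Day 4 against 14.8, 11.4 and 9.30 RPM at Day 0, ranges that overlap (−0.40 ± 0.26 SE, FDR = 0.147 by edgeR), and with library totals the WT value turned to 0.63. NAD1, of which this locus carries a part, was near the floor at Day 0, with 0.410 to 0.613 RPM in nph4-1 arf19-1 and 0.413 to 0.694 RPM in WT, and reached 21.7, 35.3 and 30.8 RPM in nph4-1 arf19-1 and 4.11, 6.67 and 10.5 RPM in WT at Day 4.

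Cytochrome b and the subunits of complex IV rose in both genotypes. COB, cytochrome b of complex III, stood at 74.1, 125 and 144 RPM at Day 4 against 2.48, 4 and 3.8 RPM at Day 0 in nph4-1 arf19-1, and at 23.3, 39.1 and 41.2 RPM at Day 4 against 3.32, 2.15 and 3.47 RPM at Day 0 in WT. COX1, the catalytic subunit of complex IV and the gene without a nuclear match, stood at 234, 334 and 352 RPM at Day 4 against 7.79, 7.89 and 12.1 RPM at Day 0 in nph4-1 arf19-1 (4.03 ± 0.26 SE, FDR = 1.26e-11 by edgeR). In WT it stood at 67.8, 96.2 and 117 RPM at Day 4 against 8.37, 7.59 and 10.5 RPM at Day 0 (2.40 ± 0.25 SE, FDR = 2.6e-08 by edgeR). The rise of COX1 was thus seen in a gene with no match on the nuclear chromosomes of the TAIR10.1 assembly. NAD9, with only a partial nuclear match, had log2 changes of 4.44 ± 0.33 SE in nph4-1 arf19-1 (edgeR FDR = 1.12e-10) and 2.93 ± 0.33 SE in WT (edgeR FDR = 5.73e-08). Members that no nuclear locus names as best match had a median log2 change of 4.69 in nph4-1 arf19-1 and 3.01 in WT (71 tested), and those with such a locus 4.45 and 2.72 (44 tested). This split follows the annotation and does not separate members with a nuclear copy from those without. NAD4, NAD6 and NAD7 were found whole on chromosome 2 by sequence, yet no nuclear locus names them, so they are among the 71.

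The ribosomal proteins and the cytochrome c maturation factors, which attach haem to c-type cytochromes, were all called higher at Day 4 in both genotypes. All 4 ribosomal protein genes were called higher at Day 4 in both genotypes, with log2 changes of 3.15 to 5.37 in nph4-1 arf19-1 and 2.1 to 3.26 in WT. Ribosomal protein L5 stood at 63.2, 75.3 and 93.8 RPM at Day 4 against 1.24, 0.922 and 1.47 RPM at Day 0 in nph4-1 arf19-1, and at 22.9, 30.5 and 38.2 RPM at Day 4 against 2.22, 0.990 and 1.66 RPM at Day 0 in WT. The 3 cytochrome c maturation genes were all called higher at Day 4 in both genotypes, by log2 3.09 to 4.93 in nph4-1 arf19-1 and 1.53 to 2.74 in WT. The 89 tested members given by identifier alone had a median log2 change of 4.70 in nph4-1 arf19-1 and 3.05 in WT, against 3.90 and 2.31 over the 26 named ones.

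**Figure D3:**
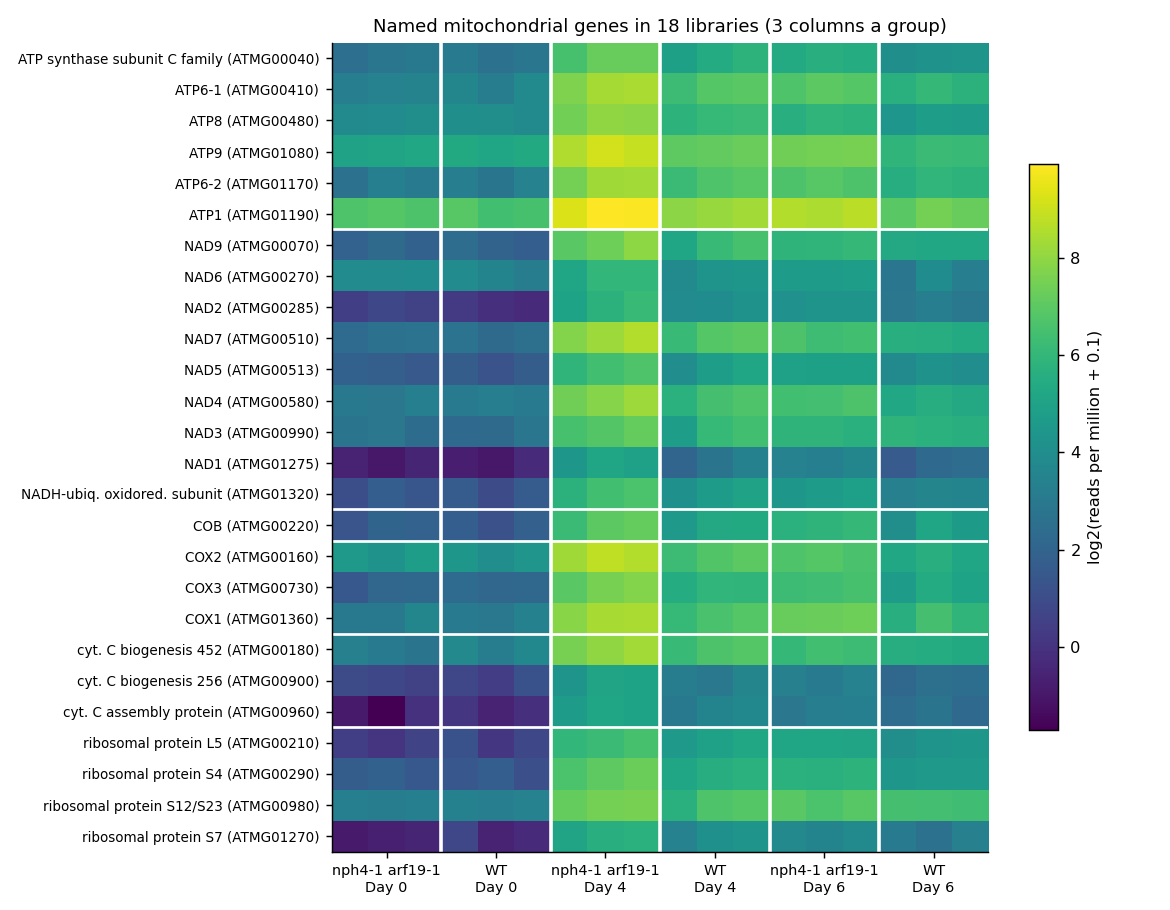
Level of the 26 named members in the 18 libraries, as log2(RPM + 0.1), grouped by function from ATP synthase (top) to ribosomal proteins (bottom), with 3 library columns for each group. The brightest columns are the Day 4 nph4-1 arf19-1 libraries, and ATP1 and ATP9 are the brightest rows at Day 0.

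Members high at Day 0 had smaller median changes than the others. To keep the ranking and the change in separate libraries, members were ranked by their Day 0 level in one genotype and their change read in the other. The 10 highest in WT at Day 0 had a median log2 change of 2.81 in nph4-1 arf19-1, or 7-fold (range 1.97 to 3.98), against 4.66, or 25.4-fold, for the other 105 tested members. The 10 included ATMG00280, with 39, 13 and 214 reads in the Day 0 WT libraries. The 10 highest in nph4-1 arf19-1 at Day 0 had a median of 1.1 in WT, or 2.15-fold (range −0.40 to 3.74), against 2.98, or 7.91-fold, for the other 105. The others include members that had almost no reads at Day 0 and passed the filter through their Day 4 level, and no test was made of this difference.

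The largest fitted rises belonged to members with no read at Day 0 and give only lower bounds. In nph4-1 arf19-1 they were ATMG00260, ATMG00550 and ATMG01410, which had 41, 81 and 43 reads, 43, 41 and 45 reads, and 27, 26 and 25 reads in the Day 4 libraries and 0 reads in the 3 Day 0 libraries. Against a floor of 3 reads per library, ATMG00260 was at least 34.1-fold higher at Day 4 in RPM, ATMG00550 at least 26.5-fold and ATMG01410 at least 15.9-fold. With TMM scaling the bounds were 16.8-fold, 13.1-fold and 7.86-fold. In WT they were ATMG00450, ATMG00860 and ATMG00710, with 10, 12 and 13 reads, 12, 9 and 7 reads, and 10, 6 and 9 reads at Day 4 and 0 reads at Day 0. Their lower bounds were 5.65-fold, 4.45-fold and 3.97-fold in RPM, and 2.79-fold, 2.19-fold and 1.96-fold with TMM scaling.

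At Day 4 nearly every mitochondrial transcript was more abundant in nph4-1 arf19-1 than in WT. edgeR called 112 of 115 tested members higher, where 14.8% of all features were called higher, and 0 lower, where 13% were. The median log2 fold change was 1.66, or 3.16-fold, beside −0.01 over all features, and the genotypes' ranges of RPM overlapped for 2 of the 121 members, or 1.65%, beside 59.2% of all loci. All 26 named members were called higher, within log2 1.07 to 2.19. By class, the medians were 1.75 for the ATP synthase, 1.70 for complex I, 1.85 for complex IV, 1.65 for cytochrome c maturation and 1.55 for the ribosomal proteins. The count was 106 without the low Day 4 WT library 1 and 113 without the low Day 4 nph4-1 arf19-1 library 1.

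The 3 largest differences at Day 4 were those of ATMG00540, ATMG00450 and NAD1. ATMG00540 stood at 7.98, 11.4 and 9.70 RPM in nph4-1 arf19-1 against 1.98, 1.75 and 2.72 RPM in WT, a log2 fold change of 2.29 ± 0.30 SE (edgeR FDR = 7.2e-06). ATMG00450 stood at 6.62, 9.73 and 9.70 RPM in nph4-1 arf19-1 against 1.52, 2.11 and 2.21 RPM in WT (2.28 ± 0.29 SE, edgeR FDR = 9.94e-06), and NAD1 differed by 2.19 ± 0.25 SE (edgeR FDR = 1.65e-06). COX2, whose copper centre receives electrons from cytochrome c, stood at 309, 449 and 384 RPM in nph4-1 arf19-1 against 76.6, 107 and 125 RPM in WT (2.03 ± 0.18 SE, edgeR FDR = 8.69e-08). The libraries of the 2 genotypes did not overlap for any of these 4 genes. COX1 differed by 1.85 ± 0.22 SE (edgeR FDR = 2.64e-06), NAD9 by 1.59 ± 0.26 SE (edgeR FDR = 6.73e-05) and ATP1 by 1.75 ± 0.17 SE (edgeR FDR = 2.9e-07). These members, with and without a full nuclear match in the TAIR10.1 assembly, differed in the same direction. The members not called were ATMG00280, ATMG00600 and ATMG00860. ATMG00280 is noted as the catalytic domain of a ribulose bisphosphate carboxylase large chain. Whether reads of a chloroplast copy enter its count was not tested. ATMG00280 was irregular among libraries, with 28.7, 32.2 and 43.4 RPM in nph4-1 arf19-1 against 14.8, 18.8 and 28.3 RPM in WT at Day 4 and with 1.81, 1.74 and 6.99 RPM in nph4-1 arf19-1 against 4.80, 1.07 and 29.7 RPM in WT at Day 0 (Day 4 log2 0.89 ± 0.57 SE, edgeR FDR = 0.231).

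**Figure D4:**
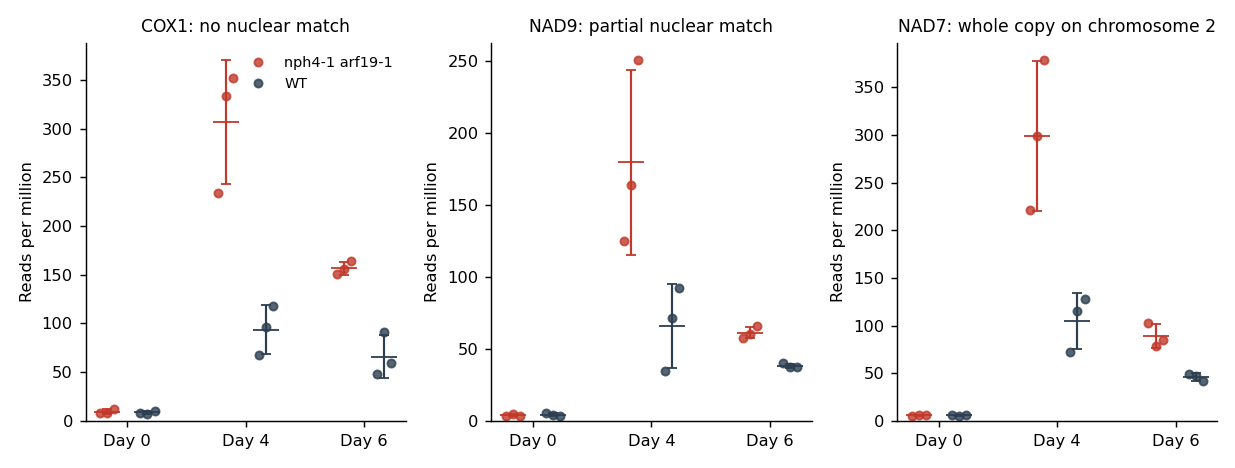
Levels (RPM) of COX1 (no nuclear match), NAD9 (partial nuclear match) and NAD7 (whole coding sequence on chromosome 2) by day and genotype. Points are libraries, horizontal bars the mean and vertical bars the SD of 3 libraries. In each gene the Day 4 nph4-1 arf19-1 libraries are the highest, with COX1 at 234 to 352.

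The change from Day 0 to Day 4 was tested directly for a difference between the genotypes. The change was larger in nph4-1 arf19-1 for 34 of 115 tested members, where 6.73% of all features were called in that direction, and smaller for 0, where 6.09% were. The median difference was 1.64 on the log2 scale. Among the 26 named members, those called included all 6 of the ATP synthase, 3 of 3 of complex IV, 3 of 9 of complex I, 2 of 3 of cytochrome c maturation and 2 of 4 ribosomal proteins. ATP9 differed by 1.91 ± 0.20 SE (edgeR FDR = 2.45e-06), ATP8 by 1.83 ± 0.23 SE (edgeR FDR = 2.31e-05), ATP1 by 1.52 ± 0.24 SE (edgeR FDR = 0.000185), COX2 by 1.63 ± 0.27 SE (edgeR FDR = 0.000232) and COX1 by 1.64 ± 0.36 SE (edgeR FDR = 0.00254). NAD1, near 0 reads at Day 0, differed by 2.04 ± 0.73 SE and was not called (edgeR FDR = 0.0495), and a member that was not called is not shown to change equally. The count was 30 without the low Day 4 WT library 1, 42 without the low Day 4 nph4-1 arf19-1 library 1 and 21 without Day 0 WT library 1.

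The largest called differences in change were in 3 members given here by identifier alone. ATMG00570 stood at 34.5, 45.1 and 50.9 RPM at Day 4 against 0.339, 0.307 and 0.736 RPM at Day 0 in nph4-1 arf19-1, and at 10.8, 16.3 and 15.8 RPM at Day 4 against 0.862, 0.990 and 0.971 RPM at Day 0 in WT. Its difference in log2 change was 2.68 ± 0.52 SE (edgeR FDR = 0.00103). For ATMG00810 the difference was 2.59 ± 0.38 SE (edgeR FDR = 9.86e-05) and for ATMG00820 2.25 ± 0.60 SE (edgeR FDR = 0.00991), the last of which did not pass in 12 alternatives. In all 3 the Day 0 level was below 2 RPM in every library.

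Between Days 4 and 6 mitochondrial transcripts fell in both genotypes. In nph4-1 arf19-1, 95 of 115 tested members were called lower at Day 6, where 8.65% of all features were called lower, and 0 higher, where 10.7% were. The median log2 change was −1.48, a 2.79-fold decrease. In WT, 62 of 115 were called lower, where 11.8% of all features were, and 0 higher, where 9.27% were, with a median of −1.20, a 2.30-fold decrease. The WT count was 74 without the low Day 4 WT library 1. The difference between the genotypes in this change was called for 0 members in either direction, where 8.73% and 3.34% of all features were called. In edgeR 5 members passed an unadjusted p of 0.05 for it, and DESeq2 called 0 and had 3.

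The fall reached most classes. All 6 named ATP synthase genes were called lower in both genotypes, as were all 9 named complex I genes in nph4-1 arf19-1 and 5 of 9 in WT. ATMG00640 and ATMG01120, also listed as coding for a known subunit or RNA but outside these counts, were not called in nph4-1 arf19-1. COX2 stood at 105, 115 and 94.5 RPM at Day 6 against 309, 449 and 384 RPM at Day 4 in nph4-1 arf19-1 (−1.74 ± 0.18 SE, edgeR FDR = 7.38e-07). In WT it stood at 37.5, 47.4 and 36.5 RPM at Day 6 against 76.6, 107 and 125 RPM at Day 4 (−1.49 ± 0.19 SE, edgeR FDR = 5.54e-06). COX1 changed by −0.86 ± 0.22 SE in nph4-1 arf19-1 (edgeR FDR = 0.00503), a call that 5 alternatives lost, and by −0.65 ± 0.22 SE in WT, which did not pass (edgeR FDR = 0.0289). COB did not pass in either genotype. It stood at 52.0, 57.2 and 65.4 RPM in nph4-1 arf19-1 and at 16.4, 36.4 and 24.4 RPM in WT at Day 6. The 3 largest called falls in nph4-1 arf19-1 were those of ATMG00550 (−2.23 ± 0.45 SE, edgeR FDR = 0.00109), ATMG00680 (−2.22 ± 0.42 SE, edgeR FDR = 0.000542) and ATMG01180 (−2.08 ± 0.28 SE, edgeR FDR = 1.68e-05). In WT they were those of ATMG00880, with 1, 2 and 2 reads at Day 6 against 4, 11 and 9 reads at Day 4, ATMG00870, with 1, 2 and 3 reads at Day 6 against 8, 8 and 10 reads at Day 4, and ATMG00910 (−1.84 ± 0.31 SE, edgeR FDR = 0.000148). The first 2 of these rest on few reads (edgeR FDR = 0.0094 and 0.00732), and 7 alternatives lost each call.

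At Day 6 the level in nph4-1 arf19-1, the group labelled with yucasin, was still above that in WT for most members. edgeR called 86 of 115 higher, where 24% of all features were called higher, and 0 lower, where 23.4% were. The median log2 fold change was 1.43, or 2.69-fold, beside −0.04 over all features, and 33 of 121 members, or 27.3%, had overlapping ranges of RPM, beside 41.0% of all loci. With library totals alone the median over all features moved by −0.39 and that of the members to 1.04. All named members of the ATP synthase, complex IV, cytochrome c maturation and the ribosome were called higher, 25 of the 26 named members in all. ATP1 stood at 379, 357 and 419 RPM in nph4-1 arf19-1 against 121, 180 and 148 RPM in WT (1.76 ± 0.17 SE, edgeR FDR = 4.77e-08). COX1 stood at 151, 156 and 164 RPM in nph4-1 arf19-1 against 47.9, 91.1 and 59.4 RPM in WT (1.65 ± 0.22 SE, edgeR FDR = 3.19e-06), and COX2 differed by 1.78 ± 0.19 SE (edgeR FDR = 1.18e-07). The genotypes did not overlap for these genes. The largest called differences were those of ATMG00880, with 2, 10 and 6 reads in nph4-1 arf19-1 against 1, 2 and 2 reads in WT (2.48 ± 0.68 SE, edgeR FDR = 0.00506, lost in 6 alternatives), ATMG00200 (2.12 ± 0.43 SE, edgeR FDR = 0.000291) and ATMG01230 (2.01 ± 0.35 SE, edgeR FDR = 5.38e-05). The 29 members not called had a median of 41 reads over the 6 Day 6 libraries, against 424 reads for the 86 called.

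The smallest differences at Day 6 among members with many reads lay largely, but not only, in a run of adjacent locus numbers. Outside the run, ATMG00370, noted as a Ycf1 protein, had 3224 reads over the 6 Day 6 libraries. It differed by 0.53 ± 0.21 SE and was not called (edgeR FDR = 0.0393). Whether reads of a chloroplast copy enter its count was not tested. NAD3, a complex I subunit, was the only named member not called. It stood at 57.8, 57.2 and 50.3 RPM in nph4-1 arf19-1 against 58.2, 52.3 and 48.8 RPM in WT, ranges that overlap (0.46 ± 0.26 SE, edgeR FDR = 0.133). In the RefSeq annotation the rps12 gene lies 45 bases behind NAD3 on the same strand. ATMG00980, the member matched to rps12, stood at 124, 97.4 and 120 RPM in nph4-1 arf19-1 against 89.0, 87.7 and 82.3 RPM in WT at Day 6. It was called higher in nph4-1 arf19-1 (0.79 ± 0.20 SE, edgeR FDR = 0.00197). ATMG01000 stood at 45.5, 41.5 and 40.1 RPM in nph4-1 arf19-1 against 42.5, 46.5 and 42.4 RPM in WT. ATMG01010 stood at 22.2, 24.8 and 25.6 RPM in nph4-1 arf19-1 against 30.0, 31.4 and 28.1 RPM in WT, with no overlap and the higher RPM in WT, while its TMM-scaled log2 fold change was 0.09 ± 0.24 SE (edgeR FDR = 0.752) and turned to −0.30 with library totals. ATMG01020 stood at 14.5, 18.1 and 15.4 RPM in nph4-1 arf19-1 against 15.2, 13.6 and 12.3 RPM in WT.

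The genes of the run were lower in WT than in nph4-1 arf19-1 at Day 4, where their differences were also small. ATMG00980 and NAD3 had the smallest log2 fold changes of the 26 named members at Day 4, 1.07 and 1.12, beside a median of 1.70. NAD3 stood at 93.4, 113 and 146 RPM in nph4-1 arf19-1 against 27.9, 68.3 and 83.7 RPM in WT, and ATMG01010 at 57.6, 70.3 and 94.8 RPM in nph4-1 arf19-1 against 21.9, 47.2 and 49.0 RPM in WT. From Day 4 to Day 6 NAD3 fell in nph4-1 arf19-1 (−0.97 ± 0.25 SE, edgeR FDR = 0.00608, lost in 5 alternatives), and in WT its Day 6 values lay within its Day 4 range. The difference in that change between the genotypes was not called for any of these genes. They were picked out after their values were seen, and the run was not tested against other runs of locus numbers.

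**Figure D5:**
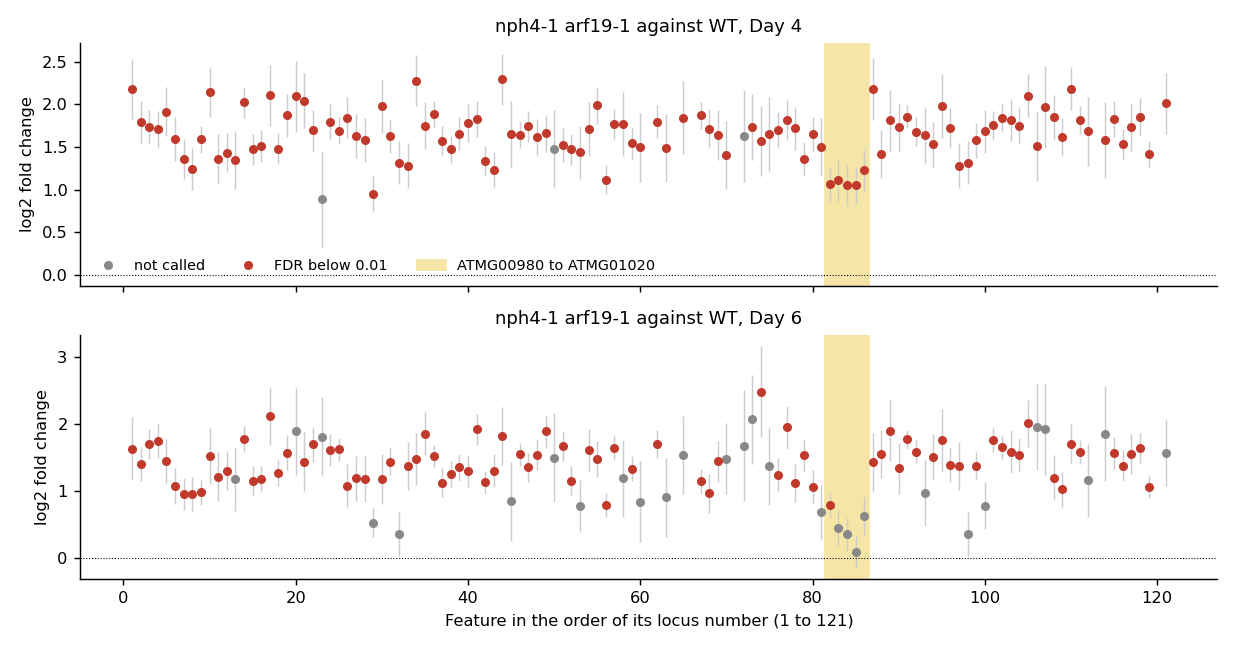
log2 fold change of nph4-1 arf19-1 over WT for the 115 tested members at Day 4 (top) and Day 6 (bottom), in the order of their locus numbers. Points are members, red where FDR is below 0.01 and grey otherwise, and vertical lines are the SE. The shaded run from ATMG00980 to ATMG01020 holds the lowest value at Day 6, 0.09 for ATMG01010.

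The makeup of the mitochondrial reads at Day 0 differed from that at Days 4 and 6, with many members near 0 reads at Day 0. ATP1 took 6.14% to 8.25% of member reads in the 6 Day 4 libraries and 5.72% to 9.39% in the 6 Day 6 libraries, below its Day 0 share in every library. The 10 highest members took 43.6% in nph4-1 arf19-1 and 43.2% in WT at Day 4, and 46.5% in nph4-1 arf19-1 and 46.6% in WT at Day 6. Over the 121 members the rank correlation of mean shares of the member reads was 0.99 between nph4-1 arf19-1 and WT at Day 4, also 0.99 at Day 6 and 0.96 at Day 0, and 0.94 between Day 4 and Day 0 within each genotype. Between Day 6 and Day 4 it was 0.99 within each genotype, the value found between genotypes at those days. The points of these correlations are genes that share reads and libraries, and they are given as a description. Per kilobase of coding length, ATP9 was again the highest at Day 4, at 2076 ± 421 RPKM in nph4-1 arf19-1 (SD, n = 3), ahead of ATP1 at 554 ± 116 RPKM. NAD6, in the group of unresolved order just below ATP8 at Day 0, was near the foot of the order in nph4-1 arf19-1 at Day 4, at 87.7 ± 26.9 RPKM (SD, n = 3).

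Chloroplast genome-encoded transcripts, which pass through the same poly(A) selection, had smaller median changes. Of 84 tested, 16 were called higher in nph4-1 arf19-1 than in WT at Day 4 and 49 at Day 6, and 0 lower, with median log2 fold changes of 0.84 and 1.27. These were 19% and 58.3% of the chloroplast features, beside 14.8% and 24% of all features called higher. Between Day 4 and Day 0, 54 were called higher and 2 lower in nph4-1 arf19-1 and 36 higher and 4 lower in WT, with medians of 1.46 and 0.75. The higher ones were 64.3% in nph4-1 arf19-1, beside 39% of all features, and 42.9% in WT, beside 42.6%, so the Day 4 share between genotypes and the WT share over time lay near those of all features. Whether a change in poly(A) tails of organelle RNA has a part in the mitochondrial values was not tested, since the libraries measure only selected RNA.

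Nuclear genes of the same complexes were called in small number between the genotypes at Day 4, below the share of all features, and in larger number at Day 6. Among 28 nuclear genes for respiratory chain and ATP synthase subunits, 20 were called higher and 2 lower at Day 4 than at Day 0 in nph4-1 arf19-1, and 21 higher and 4 lower in WT, with medians of 1.09 and 0.84. Of all features, 39% were called higher and 36.1% lower in nph4-1 arf19-1 and 42.6% higher and 37% lower in WT. Between genotypes at Day 4, 2 of the 28 were higher in nph4-1 arf19-1, the cytochrome c genes CYTC-2 (0.81 ± 0.13 SE, edgeR FDR = 6.52e-05) and CYTC-A (0.39 ± 0.11 SE, edgeR FDR = 0.00863), and 1 was lower, GAMMA CAL1 of the carbonic anhydrase-like domain of plant complex I (−0.45 ± 0.09 SE, edgeR FDR = 0.000727), where 14.8% of all features were higher and 13% lower. CYTC-2 was already called higher in nph4-1 arf19-1 at Day 0 (0.52 ± 0.12 SE, edgeR FDR = 0.00526). At Day 6, 23 of the 28 were higher in nph4-1 arf19-1 and 0 lower, with a median of 0.67, beside 24% and 23.4% of all features, and all 7 of the ATP synthase genes in this list were among them. The change from Day 4 to Day 6 was higher in nph4-1 arf19-1 than in WT for 20 of the 28 nuclear genes and lower for 0, beside 8.73% and 3.34% of all features, with a median difference of 0.70, where the mitochondrial members had a median difference of −0.27 and 0 calls.

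A further list held 26 nuclear factors that maintain, splice, edit and degrade mitochondrial nucleic acids, and no RNA polymerase was among them. Of the 26, 17 were called higher and 1 lower at Day 4 than at Day 0 in nph4-1 arf19-1, beside 39% and 36.1% of all features. In WT 18 were higher and 3 lower, beside 42.6% and 37%. The DNA-binding protein WHY2 rose by 3.93 ± 0.25 SE in nph4-1 arf19-1 (edgeR FDR = 1.1e-11) and 4.39 ± 0.25 SE in WT (edgeR FDR = 1.63e-12), whereas NMAT4, a maturase that splices NAD1 introns, fell by 3.22 ± 0.17 SE in nph4-1 arf19-1 (edgeR FDR = 1.04e-12) and by 3.81 ± 0.18 SE in WT (edgeR FDR = 8.95e-14). At Day 4, 2 of the 26 were higher in nph4-1 arf19-1 than in WT (NMAT4 and the DNA helicase TWINKLE) and 1 lower (RUG3, which acts in the splicing of NAD2 transcripts), beside 14.8% and 13% of all features. At Day 6, 0 were higher and 12 lower in nph4-1 arf19-1, beside 24% and 23.4% of all features, with a median of −0.70 beside 1.43 for the mitochondrial members. WTF9, a splicing factor, differed by −1.45 ± 0.29 SE (edgeR FDR = 0.000241) and the maturase NMAT1 by −1.28 ± 0.25 SE (edgeR FDR = 0.000235). From Day 4 to Day 6 in nph4-1 arf19-1, 9 of the 26 fell and 1 rose, beside 8.65% and 10.7% of all features, and the organellar polynucleotide phosphorylase, PNPASE, which degrades mitochondrial RNA, fell by 1.51 ± 0.27 SE (edgeR FDR = 0.000288).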

How the data were processed

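Single-end reads were aligned by the authors with Bowtie 0.12.9 (TAIR10), and they deposited, for each library, unnormalized counts per splice variant and the total of mapped reads. The labels describe poly(A)-based stranded libraries. Counts over loci added up to 1.02 to 1.04 times the total, so some reads were counted at more than 1 locus.

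All 18 libraries entered 1 edgeR 4.0.16 model (R 4.3.3) of 6 group means with TMM scaling and the low-count filter filterByExpr, and FDR values are Benjamini-Hochberg values over 25202 features. Alternatives were library totals, scaling on nuclear features, DESeq2 1.42.0, no filter, a replicate block, other limits and each library left out. RefSeq coding sequences were matched to the nuclear chromosomes with blastn. On counts simulated with 1 spread for all features, 100 features were changed 4-fold and 100 were changed 2-fold in Day 4 nph4-1 arf19-1. For nph4-1 arf19-1 against WT at Day 4 the model recovered 95% of the 4-fold and 23% of the 2-fold changes, with 24537 features tested. Features with low mean counts were left out of the changed set, so these shares do not cover members near 0 reads.

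The members, lists and tests were chosen with earlier results of these data known. Nuclear genes whose name or product in the reference did not match the intended name were dropped from the lists. Among those dropped were the RNA polymerases RPOTM and RPOTMP, NMAT3, TYKY, COX5B, MPPALPHA and an ATP synthase beta gene (AT5G08670). Fold changes were given for the 3 largest called rises and falls of a comparison with 1 direction in all same-numbered library pairs. Those of ATP1, ATP8, ATP9, COX1, COX2, NAD1, NAD3, NAD6, NAD7, NAD9, ATMG00280, ATMG00370, ATMG00980 and ATMG01010 were added after their values were seen. The study describes the replicates as biological, and replicate numbers were not used to pair samples in the main model.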

Additional observations from a re-analysis of the deposited data

Results flagged for a closer look

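The change from Day 0 to Day 4 differed between genotypes by a direct test, as a difference of log2 changes in the edgeR model, for 34 members, all with the larger change in nph4-1 arf19-1. The 3 largest of these were ATMG00570 with a difference of 2.68, ATMG00810 with 2.59 and ATMG00820 with 2.25 on the log2 scale.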

How the results depend on the processing

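Of 138 recounts of called members under the alternatives, 130 stayed within 1.5 times the main count. A comparison with 0 called members counted as within it when the recount was also 0. A comparison with nearly all tested members called could leave it only downward, so this count says little for such comparisons. The study's own limits (an absolute log2 fold change above 2 with FDR under 0.01) left 12 members at Day 4 and 3 at Day 6 between genotypes, 5 between Days 6 and 4 in nph4-1 arf19-1, 2 in WT, and 7 for the difference in change to Day 4. Library totals without TMM gave 2 members for the difference in change from Day 4 to Day 6, and turned ATMG01010 at Day 6 to −0.30 and NAD6 (ATMG00270) in WT at Day 4 to 0.63. The causes were not tested.

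Leaving out 1 library at a time gave 0 to 0, 98 to 113 and 71 to 78 members between genotypes at Days 0, 4 and 6. As the low-count filter then admits other members, it gave 114 to 120 in nph4-1 arf19-1 and 102 to 109 in WT for Day 4 over Day 0, and 78 to 99 in nph4-1 arf19-1 and 46 to 74 in WT for Day 6 over Day 4. For the difference in change it gave 21 to 42 up to Day 4, the lowest without Day 0 WT library 1, and 0 to 1 up to Day 6, the highest without Day 4 nph4-1 arf19-1 library 1. With a replicate block the counts were 0, 113, 89, 115, 109, 100, 67, 40 and 0 in the order just given. Over all features, same-numbered samples of different groups had correlations of −0.12 to 0.29. Over the members, same-numbered nph4-1 arf19-1 and WT libraries had 0.06, 0.10 and 0.28 at Day 0. They had −0.06, −0.13 and 0.23 at Day 4, and 0.23, 0.19 and 0.24 at Day 6. Differently numbered ones ran from −0.19 to 0.12 at Day 0, −0.31 to 0.35 at Day 4 and −0.20 to −0.04 at Day 6. The numbers were not used as pairs in the main model, and whether they mark a shared preparation was not tested.

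The TMM-scaled sums averaged 828 in nph4-1 arf19-1 and 773 in WT at Day 0 and 3922 in nph4-1 arf19-1 and 1554 in WT at Day 6, and the Day 6 nph4-1 arf19-1 sum was 4504 when scaled to nuclear reads. The sum without ribosomal RNAs was not run, since those identifiers are not among the members here. A floor of 3 reads stood for 0.248 to 0.872 RPM, depending on the library.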
